A study of Mus musculus with 6 samples.

Results

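The zinc-finger genes of mouse chromosome 4 were taken as every row of the gene count table on chromosome 4 that was annotated as protein-coding and either had a name beginning with Zfp or belonged to the C2H2 zinc-finger transcription factor family. They were 50 of the 55565 genes listed. Of these, 25 started beyond 140 Mb, called distal here, and 25 lay nearer the centromere. The set was chosen by measured values, because the read counts of Zfp979 and Zfp985 were lower in Mcm8 knockout (KO) cells than in wild-type (WT) cells. The comparison of KO with WT is therefore given for the 50 genes as a description. Where members are called or counted past a threshold, this is how they fell in a fit over all genes, on the same counts that chose the set, and it is no independent test of them. RNA was sequenced from mouse embryo fibroblasts (MEFs) of both genotypes, in 3 libraries each. The KO line carried a CRISPR-Cas9 deletion of exon 7 of Mcm8, which encodes a DNA helicase of the minichromosome maintenance family. Embryos of both genotypes came from matings of heterozygous mice and were taken at E13.5. The trunk without head, tail, limbs, heart and liver was used. The founders of the line had been crossed with ICR mice, so the mice used were of mixed strain background. Whether the WT and KO cells carried chromosome 4 from the same strain was not tested. Cells of both genotypes were immortalised with the lentivirus SV40gp6 and selected with puromycin, so both carried the viral gene. The study's methods name 3 biological repeats per genotype, but neither they nor the labels say whether these came from separate embryos or from repeated cultures of 1 line. p-values then measure only the spread between these libraries. In the main fit, with edgeR, that spread was pooled over all genes. Its p-values and standard errors (SE) therefore do not measure the spread of a single gene.

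C2H2 zinc-finger proteins bind DNA through repeated fingers, each holding a zinc ion between a pair of cysteines and a pair of histidines. Many also carry a KRAB box, a domain that recruits the corepressor TRIM28 (KAP1), which in turn brings the histone methyltransferase SETDB1, heterochromatin protein 1 and histone deacetylases to the bound site. KRAB zinc-finger genes spread by local duplication and lie in clusters of close copies, and many of their products silence endogenous retroviruses. The cluster at the distal end of mouse chromosome 4 is known for such genes, and pluripotent cells rather than fibroblasts are where its role has mostly been studied.

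All 21 distal genes with a KRAB box in their description lay next to each other in a stretch of 2.7 Mb (chr4:145237329-147932823, GRCm39). This stretch held 84 annotated rows in all, with these 21 genes, 54 pseudogenes and 7 lncRNAs among them, and 0 protein-coding genes of any other kind. On the plus strand lay 16 of the 21 and on the minus strand 5. The other 4 distal members, Zbtb17, Prdm2, Zbtb48 and Prdm16, stood outside the stretch on either side and had no KRAB box in their description. Only 4 of the 25 members nearer the centromere (Zfp189, Zkscan16, Zfp37 and Zfp69) had one.

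The coding sequences in the KRAB block were close copies. To show how alike they were, the 84 bases that encode the third finger found in Zfp979, with the linker after it, are set beside the aligned bases of 6 other block genes described below. Each unit lay within 1 coding exon. Positions are on GRCm38, the build of the GENCODE transcripts from which the sequences were read, and capitals mark the bases that differ from Zfp979.
Zfp979 (chr4:147613057-147613140, minus strand): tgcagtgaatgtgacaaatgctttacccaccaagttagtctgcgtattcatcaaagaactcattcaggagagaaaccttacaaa
Zfp985 (chr4:147583730-147583813, plus strand): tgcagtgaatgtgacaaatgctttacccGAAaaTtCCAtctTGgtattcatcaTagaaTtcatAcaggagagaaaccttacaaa
Zfp990 (chr4:145537493-145537576, plus strand): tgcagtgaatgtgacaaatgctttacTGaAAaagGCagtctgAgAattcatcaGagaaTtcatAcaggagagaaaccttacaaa
Zfp268 (chr4:145623048-145623131, plus strand): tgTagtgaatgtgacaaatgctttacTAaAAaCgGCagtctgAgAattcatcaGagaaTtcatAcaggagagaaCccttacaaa
Zfp984 (chr4:147755256-147755339, minus strand): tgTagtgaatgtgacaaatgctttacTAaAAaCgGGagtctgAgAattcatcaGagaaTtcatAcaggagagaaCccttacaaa
Zfp991 (chr4:147179227-147179310, plus strand): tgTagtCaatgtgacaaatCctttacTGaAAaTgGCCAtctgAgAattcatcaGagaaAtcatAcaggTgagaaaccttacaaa
Zfp992 (chr4:146466883-146466966, plus strand): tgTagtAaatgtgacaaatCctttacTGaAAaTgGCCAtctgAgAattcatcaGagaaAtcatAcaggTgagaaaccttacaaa
Zfp990 shared 73 of the 84 bases with Zfp979, Zfp985 shared 72, Zfp268 and Zfp984 shared 70 each, and Zfp991 and Zfp992 shared 66 each. The start of the unit, with its pair of cysteine codons, and the linker at its end were almost the same in all 7, and most capitals fell in the middle, where a finger contacts DNA. Over the whole aligned coding sequence Zfp979 and Zfp985 were 82.3% identical. Among pairs with at least 900 aligned bases, a limit that leaves out the short Gm21411 and holds for each closest gene given here, Zfp979 was closest to Zfp978 (92.5%), Zfp985 to Zfp268 (91.2%) and Zfp990 to Zfp986 (93.9%). Zfp991, Zfp992 and Zfp993 were near copies of each other, with 1711 of 1719 bases (99.5%) shared by Zfp991 and Zfp992, 938 of 940 (99.8%) by Zfp991 and Zfp993 and 935 of 940 (99.5%) by Zfp992 and Zfp993. Zfp268 and Zfp984 were 97.1% identical. Zfp933, at the telomeric edge of the block, was the exception, with 65.7% identity to its closest relative Zfp988. For the 4 KRAB genes nearer the centromere the closest member was 59.6% to 62.4% identical.

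The region before the start of Zfp979 and of Zfp985, the genes that led to the choice of the set, was also a copy. The 250 bases before each start, from RefSeq promoters on GRCm38.p6, are shown with capitals on the runs ATTGGGCGG and GGAAGTG, which both hold.
Zfp979 (chr4:147642509-147642758, minus strand): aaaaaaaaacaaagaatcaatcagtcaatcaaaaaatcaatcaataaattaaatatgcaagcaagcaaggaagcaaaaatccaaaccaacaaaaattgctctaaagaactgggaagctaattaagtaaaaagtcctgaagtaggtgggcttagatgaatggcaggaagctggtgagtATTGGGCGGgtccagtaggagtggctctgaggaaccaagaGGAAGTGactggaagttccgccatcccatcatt
Zfp985 (chr4:147553027-147553276, plus strand): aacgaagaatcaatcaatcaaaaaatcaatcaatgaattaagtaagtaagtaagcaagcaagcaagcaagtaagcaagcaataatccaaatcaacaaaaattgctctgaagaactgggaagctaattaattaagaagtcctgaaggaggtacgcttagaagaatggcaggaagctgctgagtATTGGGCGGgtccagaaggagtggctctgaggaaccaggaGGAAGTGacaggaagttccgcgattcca
Of 238 aligned bases, 210 (88.2%) were identical. Both held CCAAT read on the opposite strand, sharing the last letters of the run ATTGG with a GC box (GGGCGG), and both held GGAAGTG nearer the start. In Zfp979 these matches began 73, 70 and 33 bases before the start, and in Zfp985 68, 65 and 28. Searching both strands, CCAAT was found in 33.8% of all 32851 promoters of this length, GGGCGG in 32.7% and GGAAGTG in 8.55%. RefSeq promoters were matched for 32 of the 50 members. All 3 motifs stood in 1 window of 250 bases for 4 further members as well, Zfp980, Zfp600, Rex2 and Zfp982, which had at most 9 reads in any library.

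Library totals ran from 12722979 to 19019695 reads in WT and from 15954793 to 21022755 in KO. Mcm8 itself was at 14.4 ± 1.99 CPM (the counts of a library scaled to a common depth, mean ± SD, n = 3) in WT and 4.26 ± 0.17 in KO (log2 fold change -1.75). The genotypes also differed in sex-linked transcripts. Ddx3y, on the Y chromosome, was at 7.77 ± 0.966 CPM in WT and 42.6 ± 5.32 in KO, and Xist, the X-inactivation RNA, was at 1200 ± 224 and 481 ± 11.4. Fibroblast markers summed to 27000 to 31700 CPM in WT and 31200 to 32100 in KO, with 1 of 10 (Thy1) called lower. Markers of other cell types were far lower but some moved with genotype. Mesothelial markers summed to 2.95 to 3.49 CPM in WT and 43.2 to 48.7 in KO (1 of 5 called higher, Msln, and Lrrn4 at 0), epithelial ones to 3.99 to 5.37 and 12.7 to 13.5 (2 of 7 called higher, Krt8 and Krt18, none at 0), and neural ones to 18.7 to 22.5 and 32.0 to 35.0 (1 of 5 called higher, Sox2, with Neurod1 and Sox10 at 0). Single genes made up nearly all of 2 of these sums. Mean Msln was 2.88 CPM in WT and 44.9 in KO, whereas Wt1 was at 0.261 and 0.309, Upk3b at 0 and 0.0401 and Upk1b at 0.126 and 0. Tubb3, not called, was at 19.9 and 31.7, and Sox2 at 0.252 and 1.67. Pluripotent and germ cell markers summed to at most 1.13 CPM, with 4 of 7 at 0 (Pou5f1 among them), and blood and endothelial markers to at most 4.33 CPM with no call and 3 of 6 and 1 of 5 at 0 (Adgre1, Hbb-bt, Hba-a1 and Emcn). The part of these differences in the zinc-finger results was not tested. In such bulk samples, fewer cells that express a gene and less of its RNA per cell cannot be told apart.

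The distal KRAB block held 5 of the 6 members that were called different between genotypes. A gene was called when its log2 fold change in edgeR's quasi-likelihood fit over all genes was beyond 1 in either direction with an adjusted p below 0.05. Of 26898 genes tested, 0.665% were called lower in KO and 1.75% higher. Of the 25 distal members 24 entered the fit, 3 were called lower (Zfp979, Zfp985 and Zfp990) and 3 higher (Zfp991, Zfp993 and Prdm16). Of the 25 members nearer the centromere, 21 entered it and 0 were called in either direction at this fold (DESeq2, a second count model, also called 0, and at an unadjusted p below 0.05 in edgeR 1 was lower and 3 higher). With no minimum on the fold, 4.03% of all genes passed as lower and 4.97% as higher. By that measure 6 distal members were lower and 3 higher, and 1 other member was lower and 3 higher. Every KO library was below every WT library in 10.1% of all genes and above it in 11.6%, and in 5 and 3 of the 24 distal members. Among genes with a mean of at least 1 CPM over all libraries, 7.88% passed as lower and 9.08% as higher at any fold, and the libraries were apart in 17.2% and 16.9%. At that level there were 12 distal members, of which 6 passed as lower and 2 as higher, and the libraries of 5 and 3 were apart. The contrast that chose the genes is the one counted here, so these shares describe the set and support nothing further.

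Zfp979 had the largest share of the block's reads in WT. It was at 21.4, 23.2 and 18.4 CPM in the WT libraries and at 7.27, 4.45 and 5.31 in the KO libraries, from 273, 326 and 343 reads and from 154, 74 and 85 reads. All 3 KO libraries lay well below all 3 WT libraries, and the KO mean was 27.0% of the WT mean. The log2 fold change was -1.86 (SE 0.14). Zfp985, which lies 26738 bases before Zfp979 on the chromosome and on the other strand, was at 3.84, 2.14 and 2.52 CPM in WT and 0.944, 0.361 and 0.312 in KO. These KO values came from 20, 6 and 5 reads, and they again did not overlap with WT. Its log2 fold change was -2.30 (SE 0.37). Zfp990, the first gene of the block at its centromeric edge, was at 6.66, 6.84 and 5.31 CPM in WT and 1.70, 2.46 and 2.25 in KO, with no overlap and a log2 fold change of -1.56 (SE 0.23). Zfp990 thus lay at the other end of the block from Zfp979 and Zfp985. Between them lay genes with smaller differences, and also Zfp991 and Zfp993. These last were called higher in KO on few reads (log2 fold changes of 1.10 and 2.78) and are described below. When 1 library was left out the log2 fold changes of the genes called lower ranged from -2.10 to -1.72 for Zfp979, from -3.03 (without KO replicate 1) to -2.04 for Zfp985 and from -1.67 to -1.40 for Zfp990.

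Zfp268 and Zfp984, the pair of near copies at 97.1% identity, were lower by similar amounts. Zfp268 was at 15.2, 16.8 and 13.7 CPM in WT and 9.49, 8.36 and 10.4 in KO (log2 fold change -0.69, SE 0.13). Zfp984 was at 13.1, 15.3 and 12.5 CPM in WT and 8.21, 9.56 and 9.30 in KO (log2 fold change -0.60, SE 0.14). In both genes every KO library was below every WT library, and neither reached the fold needed for a call. Zfp984 overlaps the lncRNA Gm20707 on the same strand, which had 192 reads over all libraries against 1097 for Zfp984. Zfp992 and Zfp933, outside the naming rule and described here after their values were seen, were closer between genotypes. Zfp992 was at 11.0, 10.2 and 8.10 CPM in WT and 6.51, 6.19 and 8.12 in KO (log2 fold change -0.48, SE 0.16), and the groups overlapped by the narrowest margin. Zfp933, the least alike in sequence, was at 8.78, 9.77 and 12.5 CPM in WT and 10.5, 8.72 and 7.68 in KO, with overlapping groups and a log2 fold change of -0.21 (SE 0.15).

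**Figure D1:**
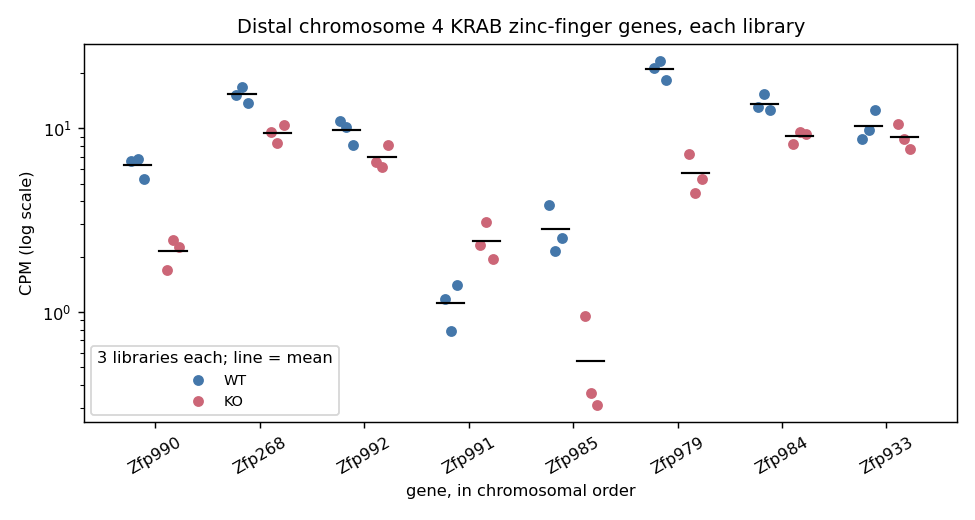
CPM on a log axis in each of the 3 WT and 3 KO libraries for the 8 distal KRAB zinc-finger genes with a mean of at least 1 CPM, in chromosomal order, with a line at each mean. The groups are apart and lower in KO for Zfp990, Zfp268, Zfp985, Zfp979 and Zfp984, overlap for Zfp992 and Zfp933, and are apart and higher in KO for Zfp991.

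Per length, as FPKM (fragments scaled by gene length and library size), the order of the block genes also differed between genotypes. In WT, Zfp979 stood at 5.09 ± 0.614 FPKM, Zfp984 at 4.67 ± 0.524 and Zfp268 at 4.23 ± 0.445 (SD, n = 3), and neighbours in this order were within the spread of the libraries. Zfp933 at 2.41 ± 0.429 and Zfp992 at 2.14 ± 0.335 FPKM followed, again within the spread, and then Zfp990 at 1.79 ± 0.247 and Zfp985 at 0.984 ± 0.313 FPKM. In KO the highest was Zfp984 at 3.09 ± 0.249 FPKM, then Zfp268 at 2.60 ± 0.277, Zfp933 at 2.09 ± 0.333 and Zfp992 at 1.52 ± 0.225. Zfp979 came next at 1.37 ± 0.348 FPKM, below Zfp933 by more than either spread but not below Zfp992. Zfp990 at 0.608 ± 0.113 and Zfp985 at 0.187 ± 0.122 FPKM were lowest of the 7. At a mean above 1 FPKM, 27 of the 50 members counted as expressed in WT and 26 in KO. The number was 9 and 8 among distal members, with Zfp990 as the one that dropped out, and 18 in both genotypes among the rest.

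Zfp991 and Zfp993 were higher in KO, whereas their near copy Zfp992 was lower. Zfp991 was at 1.18, 0.784 and 1.40 CPM in WT and 2.31, 3.07 and 1.94 in KO, apart and higher in KO (log2 fold change 1.10, SE 0.33), from 11 to 26 reads in WT and 31 to 51 in KO. Zfp993 had 0, 1 and 4 reads in WT and 4, 23 and 13 in KO, so its groups touched at 4 reads and its mean was below 1 CPM. Both calls depended on the fit, since they were lost with DESeq2 and without KO replicate 2 (Zfp991 at a log2 fold change of 0.91, Zfp993 at 2.13). Without WT replicate 2 the call of Zfp991 was lost as well, at 0.90, and Zfp993 had too few reads to pass filterByExpr, edgeR's filter on low counts. The pseudogene Znf41-ps, of the same sequence group and within the block, was at 0.973 ± 0.663 CPM in WT and 2.0 ± 0.173 in KO (log2 fold change 1.02, edgeR adjusted p = 0.0498). That p ranged from 0.00376 to 0.295 over the alternative fits, with 0.213 by DESeq2. Summed over Zfp991, Zfp992 and Zfp993, the level was 12.1, 11.0 and 9.71 CPM in WT and 9.02, 10.6 and 10.9 in KO, that is 11.0 ± 1.22 and 10.2 ± 1.01 (SD, n = 3), a difference smaller than the spread. With Znf41-ps added the sums were 11.9 ± 1.10 CPM in WT and 12.2 ± 0.976 in KO. The 4 near copies together thus did not differ beyond the spread of the libraries.

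How far a short read could be assigned to 1 gene was measured with windows of 50 and of 150 bases. These were cut from 1 annotated transcript of each member, that with the longest coding sequence. Windows found unchanged in transcripts of any other gene were counted. For Zfp979 this transcript held 2594 bases, against a gene length of 4111 in the counts, so part of the counted sequence was not examined. Zfp991 shared 87.0% of its 50-base windows and 62.8% of its 150-base windows, most often with Znf41-ps. Zfp993 shared 86.8% and 60.9%, most often with Zfp991, and Zfp992 shared 43.7% and 21.3%. The genes called lower shared far less. Zfp979 shared 24.6% and 10.9%, Zfp985 15.7% and 0%, and Zfp990 27.0% and 0%. Zfp268 shared 65.1% and 15.9%, mostly with Zfp984, and Zfp984 shared 57.4% and 16.2%. Zfp933 shared 1.07% and 0%. The setting used for reads that map to several genes is not given in the sources used here, so the values of single genes in the Zfp991 group and of Zfp268 and Zfp984 are uncertain, and sums are given beside them. Zfp268 and Zfp984 summed to 28.9 ± 3.0 CPM in WT and 18.4 ± 1.08 in KO, 63.8% of WT.

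**Figure D2:**
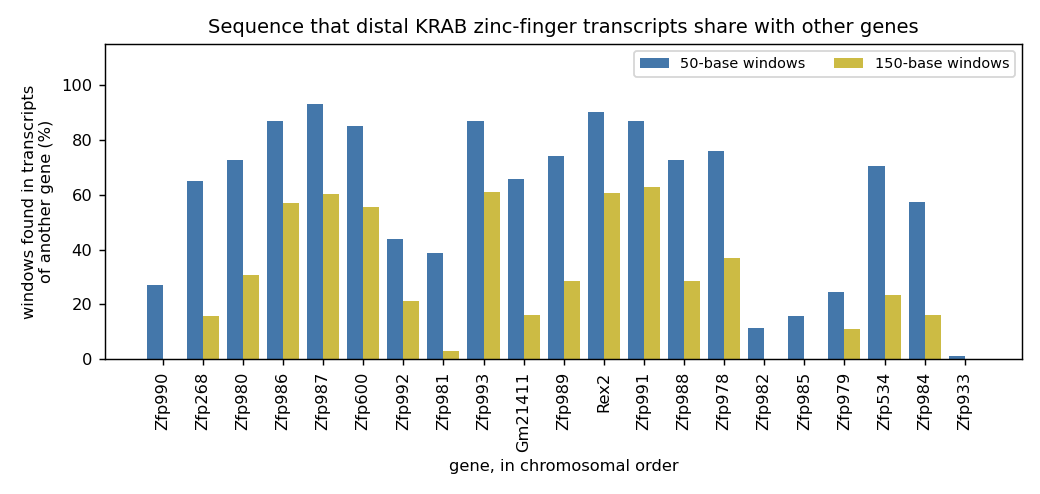
Percent of 50-base and 150-base windows of each distal KRAB zinc-finger gene's transcripts that occur unchanged in transcripts of another gene, in chromosomal order (GENCODE transcripts). Zfp991 and Zfp993 are above 60% for 150-base windows, whereas Zfp990, Zfp985 and Zfp933 are at 0%.

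Over the whole block the summed level was lower in KO. It was 81.6, 86.6 and 75.5 CPM in the WT libraries and 47.6, 45.2 and 46.6 in the KO libraries, or 81.2 ± 5.55 and 46.5 ± 1.2 (SD, n = 3), 57.2% of WT. The 3 called genes made up the larger part of the difference. Zfp979, Zfp985 and Zfp990 together were at 30.1 ± 3.36 CPM in WT and 8.35 ± 1.38 in KO (27.7% of WT). Without them the block still stood at 51.1 ± 2.84 CPM in WT and 38.1 ± 0.58 in KO (74.6% of WT), with no overlap between libraries. Zfp979 held 25.9% of the block's summed CPM in WT and 12.2% in KO, whereas the share of Zfp933 was 12.7% and 19.3%. The 21 tested zinc-finger genes nearer the centromere summed to 515 ± 57.4 CPM in WT and 564 ± 7.17 in KO, 110% of WT, with groups that did not overlap and WT replicate 1 lowest at 448 CPM.

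**Figure D3:**
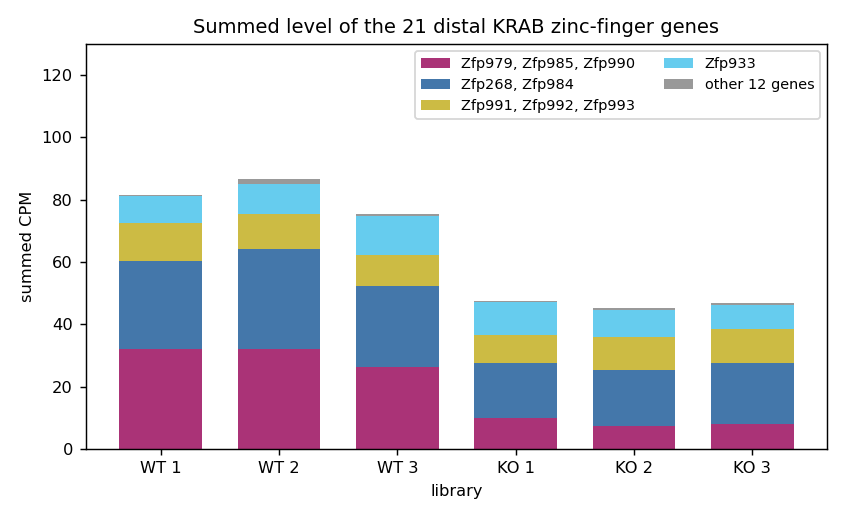
Summed CPM of the 21 distal KRAB zinc-finger genes in each library, stacked by group of genes from 0. The bars reach 75.5 to 86.6 CPM in WT and 45.2 to 47.6 in KO, and the part made of Zfp979, Zfp985 and Zfp990 differs most.

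Most block genes were hardly detected. Zfp986 had 0 reads in every library, a count that allows up to 3 reads per library. In all, 7 distal members (Zfp986 among them) had at most 3 reads in each library, and 8 of the 21 block genes had a mean of at least 1 CPM over all libraries. Of these 8, 7 had a negative log2 fold change and 1 a positive one, with a median of -0.65. Over the 13222 genes at this level the median was -0.0077. The 8 include Zfp979 and Zfp985, whose lower values chose the set, and Zfp985 reached this level through WT alone, so the tally is a description only. The median over all 24 tested distal members was -0.53, against 0.012 for all genes, but it includes genes with next to no reads and changed to 0.16 without WT replicate 3. Among the 12 distal members of at least 1 CPM it was -0.35 and ranged from -0.39 to -0.30 when 1 library was left out. Along the block, genes with hardly any reads alternated with expressed ones. Those with hardly any reads included the members that shared the most 50-base windows, Zfp987 at 93.1% and Rex2 at 90.3%. By 150-base windows the expressed Zfp991 shared the most, at 62.8%. The genes with hardly any reads are given as not detected at this depth rather than as absent.

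The distal members outside the block did not go down. Prdm16, a PR domain regulator known for its role in brown fat, was at 0.392, 0.0713 and 0.751 CPM in WT and 1.89, 1.92 and 1.5 in KO. The groups were apart, with 1 to 14 reads in WT and 24 to 40 in KO, and the log2 fold change was 2.03 (SE 0.45). The log2 fold change ranged from 1.57 without WT replicate 2 to 2.94 without WT replicate 3, and at 0.189 ± 0.0252 FPKM in KO it remained a gene of very low level. Zbtb17 (MIZ1), a partner of MYC in gene repression, was at 31.2 ± 3.31 CPM in WT and 37.4 ± 1.94 in KO (log2 fold change 0.26, SE 0.09). It overlaps Spen on the opposite strand, a gene with 15173 reads against 3431, and the strand setting of the counting is not given in the sources used here. Prdm2 (RIZ), a PR domain protein linked to histone H3 lysine 9 methylation, was the highest distal member per length at 13.5 ± 1.93 FPKM in WT and 14.5 ± 0.426 in KO, within the spread. Zbtb48 (TZAP), which binds telomere repeats, was at 13.3 ± 2.20 CPM in WT and 15.1 ± 1.15 in KO, with overlapping libraries. Zbtb17 was the first member past 140 Mb and Zbtb40 the last before it. Zbtb40 was at 29.9 ± 4.35 CPM in WT and 32.9 ± 1.43 in KO, with overlapping libraries, whereas every KO library of Zbtb17 was above every WT library.

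Nearer the centromere the values farthest from 0 were those of genes higher in KO. The median log2 fold change of the 21 tested genes was -0.0015, and among the 19 with at least 1 CPM the values ran from -0.42 to 0.78. Zfp618 was at 24.2, 32.6 and 34.6 CPM in WT and 54.0, 54.5 and 49.6 in KO (log2 fold change 0.78, SE 0.09). Bnc2 (basonuclin 2), a zinc-finger protein of mesenchymal cells, was at 23.4, 33.7 and 33.4 CPM in WT and 49.5, 49.2 and 49.3 in KO (log2 fold change 0.70, SE 0.09). In both the KO libraries lay above the WT libraries, and WT replicate 1 was the lowest. Zfp462 was at 76.9 ± 13.6 CPM in WT and 92.9 ± 4.80 in KO (log2 fold change 0.27, SE 0.08), and its groups were apart too. Without WT replicate 1 the value was 0.13, and Zfp462, counted above among the 3 higher at any fold, no longer passed in that fit, with DESeq2, with filterByExpr or without KO replicate 1 or KO replicate 3. Hivep3 (Schnurri-3), a regulator of bone formation outside the naming rule and picked after its value was seen, was at 23.8, 38.3 and 37.5 CPM in WT and 24.2, 22.8 and 28.0 in KO. Its groups overlapped through WT replicate 1 (log2 fold change -0.42, SE 0.10). The members highest per length in WT were Zfp362 at 8.41 ± 0.181 FPKM, Zfp292 at 8.35 ± 0.825, Rlf at 7.28 ± 0.905, Zfp462 at 7.16 ± 1.25 and the pluripotency factor Klf4 at 6.20 ± 0.779. Apart from Zfp462, whose values are given above, they had overlapping libraries and log2 fold changes of -0.08, -0.04, -0.11 and 0.20. The 4 KRAB genes of this region had a median of -0.08. Zkscan16 had the highest value among them at 0.68 (SE 0.40), from 8 to 23 reads in WT and 17 to 37 in KO, with overlap.

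**Figure D4:**
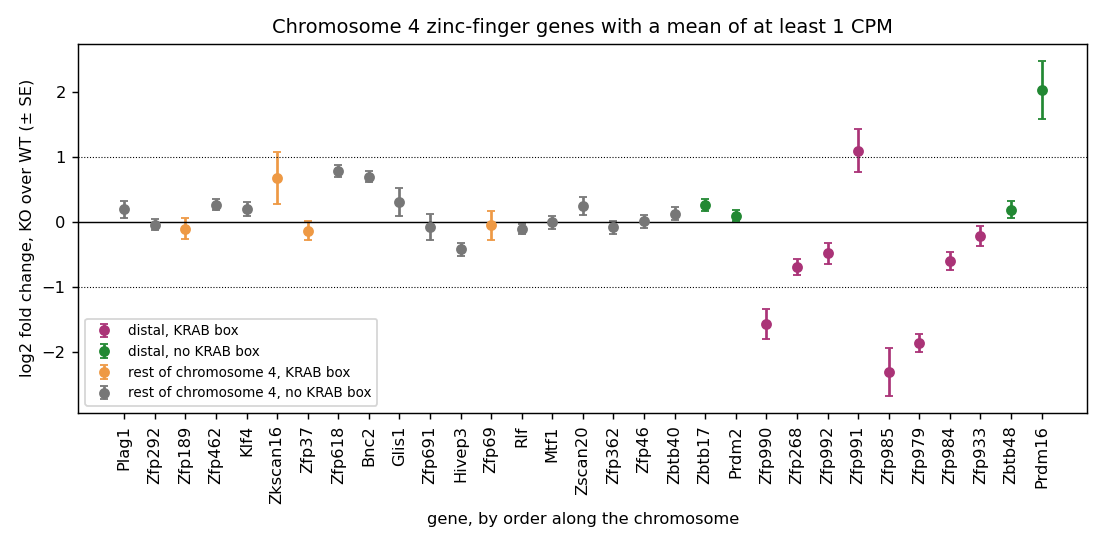
Log2 fold change of KO over WT with its standard error for the 31 chromosome 4 zinc-finger genes with a mean of at least 1 CPM, spaced evenly in chromosomal order and coloured by region and KRAB box, with dotted lines at -1 and 1. The values nearer the centromere stay between -0.42 and 0.78, and those in the distal KRAB block run from -2.30 for Zfp985 to 1.10 for Zfp991.

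KRAB zinc-finger genes elsewhere in the genome are given for comparison, and nothing is read from setting them against Zfp979 and Zfp985, whose values chose the set. Of 240 on other chromosomes, 220 were tested. In edgeR's fit 0 were called lower and 2 higher, against 0.665% and 1.75% of all genes, and DESeq2 gave the same counts. With no minimum on the fold 9 of them passed as lower and 3 as higher, and at an unadjusted p below 0.05 the counts were 25 (11.4%) and 9 (4.09%), against 8.47% and 9.47% of all genes. Among the 184 of at least 1 CPM, log2 fold changes lay between -0.76 and 0.97. The 2 called higher, 5730507C01Rik and Zfp459, had at most 3 reads in each WT library, and 18 to 42 and 10 to 31 reads in KO. Over all C2H2 zinc-finger genes of other chromosomes, 543 were tested with a median log2 fold change of 0.016, and 2 were called lower (1 with DESeq2, without KO replicate 2 or without KO replicate 3) and 9 higher.

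Genes around the block were lower and higher in KO. Of 175 tested protein-coding genes beyond 140 Mb that were not zinc-finger genes, 1 was called lower and 4 higher, with a median log2 fold change of 0.08. With no minimum on the fold 5 passed as lower (2.86%) and 27 as higher (15.4%), against 4.03% and 4.97% of all genes, and in 41 (23.4%) every KO library was above every WT library, against 11.6%. From 144 to 149 Mb, 28 such genes were tested, and with no minimum on the fold 4 passed as lower and 4 as higher. Masp2, a protease of the complement system, was called lower (1.34 ± 0.508 CPM in WT, 0.447 ± 0.432 in KO, log2 fold change -1.62, adjusted p = 0.0126), with 2 to 27 reads per library and overlapping groups. Its adjusted p ranged from 0.000589 to 0.165 over the alternative fits, with 0.122 by DESeq2. Dhrs3, a retinaldehyde reductase, was called higher (log2 fold change 1.10, edgeR adjusted p = 0.00499), as was Fbxo2, an F-box protein (1.18, adjusted p = 0.0254). Over the alternative fits these adjusted p-values ranged from 0.00168 to 0.0347 and from 0.00768 to 0.183. The call of Dhrs3 was lost without WT replicate 2, at a log2 fold change of 0.95, and that of Fbxo2 with DESeq2 (adjusted p = 0.119) and without KO replicate 1, KO replicate 3, WT replicate 2 or WT replicate 3. At the telomeric edge the nearest protein-coding neighbours, looked at after their values were seen, were Miip at a log2 fold change of -0.36 (adjusted p = 0.0485) and Fv1 at -0.60 (adjusted p = 0.0034). Fv1, a restriction factor against murine leukaemia viruses that derives from a retroviral gag gene, was at 9.47 ± 2.43 CPM in WT and 6.31 ± 1.09 in KO, and its adjusted p ranged from 3.2e-05 to 0.0808 over the alternative fits. That of Miip ranged from 0.0253 to 0.303. Farther towards the telomere, and also picked after their values were seen, Clcn6 was lower (-0.27, edgeR adjusted p = 0.00523) and Agtrap higher (0.55, adjusted p = 1.37e-05). On the centromeric side the nearest tested gene with an edgeR adjusted p below 0.05 was Tnfrsf1b (TNF receptor 2), also picked after its value was seen. It was higher in KO (log2 fold change 0.99, adjusted p = 2.89e-16) but not called. Within the block, the 63 rows that were not protein-coding, most of them pseudogenes, summed to 20.1 ± 0.933 CPM in WT and 22.2 ± 1.32 in KO. Of the 31 of them tested, 0 were called lower by edgeR or by DESeq2, 0 were lower and 5 (16.1%) higher at an unadjusted p below 0.05, and Znf41-ps was called higher by edgeR. The lower summed level in KO was thus in the protein-coding genes and not in the other rows between them.

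The genes listed for work with KRAB zinc-finger proteins differed little in size between genotypes, with log2 fold changes from -0.25 to 0.27. Of 32 corepressor and heterochromatin genes, all were tested and 0 were called in either direction by edgeR at the fold of 1, and DESeq2 also called 0. At an unadjusted p below 0.05, 3 were lower (9.38%) and 8 higher (25%), against 8.47% and 9.47% of all genes. With no minimum on the fold 1 passed as lower and 3 as higher, against 4.03% and 4.97% of all genes. Trim28, the corepressor that KRAB boxes bind, was at 459 ± 18.0 CPM in WT and 526 ± 11.6 in KO (log2 fold change 0.20, edgeR adjusted p = 0.0339). Setdb1, the methyltransferase it recruits, was at 93.2 ± 4.15 CPM in WT and 101 ± 0.497 in KO (0.12, adjusted p = 0.449). The others that passed in edgeR's fit were Hdac1 (0.27, adjusted p = 0.0042), Sumo2 (0.24, adjusted p = 0.0325) and Zfp91 (-0.25, adjusted p = 0.0108). Zfp91, which alone passed as lower, is itself a zinc-finger gene without a KRAB box. It and Zfp57, a KRAB zinc-finger gene of this list, were also counted among the zinc-finger genes of other chromosomes. Whether Zfp91 acts with KRAB proteins here was not tested. Sumo2 varied widely between libraries, from 212 reads in WT replicate 1 to 2127 in KO replicate 1, and its log2 fold change was -0.21 without WT replicate 1. Over the alternative fits the adjusted p ranged from 3.64e-07 to 0.216 for Trim28, from 1.63e-07 to 0.0691 for Hdac1, from 5.42e-10 to 0.919 for Sumo2 and from 0.000297 to 0.247 for Zfp91, so each of the 4 lost its pass in at least 1 fit. The list median was 0.019.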

How the data were processed

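RNA was sequenced from MEFs as 150 bp paired-end reads from a NEBNext Ultra library. Per the labels' processing notes and the methods, the authors trimmed reads with fastp, aligned them with HISAT2 2.0.5 and counted reads per gene with featureCounts 1.5.0-p3. The deposited counts are raw whole numbers per gene, and the authors' FPKM values are scaled by gene length and library. Coordinates in the files are those of GRCm39, although the notes name GRCm38. Counts were tested with edgeR 4.0.16 (TMM, quasi-likelihood, no covariates) over 26898 genes, those with a nonzero FPKM in any library, and p-values were adjusted by Benjamini-Hochberg over all of them. The prior degrees of freedom of this fit were infinite, so all genes shared 1 spread. CPM values use the same scaling. The fit was checked on simulated data. Members, lists and comparisons were chosen with earlier results of these data known. Named members were those called, the 5 lowest and 5 highest log2 fold changes of at least 1 CPM, the 5 highest mean FPKM in each region and those beside the 140 Mb boundary. The named neighbours were the called protein-coding genes from 144 to 149 Mb. Alternatives were DESeq2 1.42.0, RLE factors, filterByExpr, a replicate block, each library left out and, for the distal genes, a required KRAB box. Coding sequences were read from GENCODE transcripts and compared by global alignment with Biopython 1.88.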

Additional observations from a re-analysis of the deposited data

How the results depend on the processing

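The 14 results that answer a comparison were computed under 141 alternatives, of which 121 stayed within 1.5 times the main count or within 1 SD of the main median. The distal genes called higher fell from 3 to 1 with DESeq2 and ranged from 1 to 3 when 1 library was left out, with 1 without KO replicate 2. The distal median of -0.53 became -0.34 with filterByExpr, -0.34 with the replicate block and -0.65 with the KRAB box required, and ranged from -0.61 to 0.16 with 1 library left out, the highest without WT replicate 3. The median of the other chromosome 4 genes ranged from -0.033 to 0.07 with 1 library left out. Zinc-finger genes of other chromosomes called lower went from 2 to 1 with DESeq2 and ranged from 1 to 3. Other distal protein-coding genes called lower went from 1 to 0 with DESeq2 and to 0 with filterByExpr, and ranged from 0 to 1. The medians over members of at least 1 CPM were chosen after seeing the data. Replicate numbers did not pair the libraries, since same-numbered libraries had correlations of deviations of -0.0249, -0.0157 and 0.0374, and the replicate block left 158 genes called lower and 445 higher against 179 and 472. Of 199 values of single named genes, 5 lost their call (all of Zfp991 or Zfp993) and 0 called ones changed sign. The uncalled values of Zfp292 and Prdm2, near 0, did change sign. In all 10 values, each with 1 library left out, moved by at least the gene's SE in the main fit: Zfp462 (0.13 and 0.36 against 0.27), Zfp618 (0.65 and 0.89 against 0.78), Rlf (-0.19 and -0.019 against -0.11), Bnc2 (0.56 against 0.70), Klf4 (0.046 against 0.20), Zbtb40 (0.024 against 0.13) and Prdm2 (-0.014 against 0.10). Low counts limit Zfp985, Zfp991, Zfp993 and Prdm16, and shared sequence limits the Zfp991 group. The SEs from 3 libraries cover only the spread between them, pooled over genes in edgeR's fit.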
